A study of Rattus norvegicus with 20 samples.

Results

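Rat thymic epithelial cells were compared with whisker follicle cells, both cultured and sequenced before they met a skin microenvironment, and the comparison was described across all genes. It rests on 4 of the 20 RNA-Seq samples of the series, 2 of thymus and 2 of whisker, and on 13302 of 32494 listed genes, those with 1 or more counts per 1000000 (CPM) in at least 1 of the 20 samples. The study asked how epithelial stem cells of tissues without hair differ from hair follicle stem cells before and after transplantation into newborn mouse skin. All donors were Sprague-Dawley rats of the green line (CZ-004, act-EGFP), which carry an EGFP transgene in all cells. The thymus was dissected at PN137 and the whisker at PN57 (PN, postnatal day). The thymic samples are named both bulk and clone 9 in the labels, and came from a frozen stock. The whisker samples were of a single clone, clone 7. Both were grown on irradiated mouse 3T3-J2 fibroblasts and sorted for EGFP before RNA extraction. The labels do not say that the samples of a group came from separate animals or cultures. The p values therefore measure only the spread within groups, pooled over all groups of the series, which may be technical. Tissue, age and clone differed together between the groups, and any difference in sex, frozen storage or passage goes with them. None of these can be told apart. A frozen stock is stated for thymus only, and the passage of these samples is not given.

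The thymic epithelium descends from the pharyngeal pouch endoderm. It forms a network of cells that attract lymphoid progenitors, present antigens to developing T cells and, in its medulla, transcribe many genes of other organs. The whisker follicle descends from the surface ectoderm, and its clonogenic cells give rise to hair, sebaceous gland and epidermis, whose outermost cells flatten and cornify. Both cell types belong to the epithelia that express Tp63. The symbol Tp63 is not paired with an identifier in the lists used here, and neither are Foxn1, Lhx2, Gata3, Hr, Lef1, Krt5 and Krt14, which are not analysed here.

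Between 21678751 and 24758779 reads were counted on genes in the 4 samples, so that 3 counts, taken as the smallest level shown, corresponded to at most 0.124 CPM in a thymic library and 0.141 CPM in a whisker library. The thymic samples differed from each other by 0.44 (root mean square over genes, log2 CPM) and the whisker samples by 0.34, whereas samples of different groups differed by 1.37 to 1.39. By the mean chi-square per gene, the thymic samples differed most among the 10 groups of the series (42.9, against 8.88 between the whisker samples), whereas by the SD of the log2 difference the bladder samples before transplantation differed slightly more (0.448 against 0.439). The spread pooled over all groups may therefore understate that between the thymic samples. Symbols were available for 2311 of the genes tested, 1911 of them usable as names. They come from the study's own lists of genes that differed on these samples, and are therefore no random draw from the genome. One of these lists was used in a shortened form, which also leaves genes without a symbol and decides which list members could be counted.

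The transcriptomes of the thymic and whisker cells differed widely. Of the 13302 genes, 3048 (22.9%) differed between thymus and whisker by 2-fold or more with an adjusted p under 0.05 (limma voom), and are referred to as called. In thymus, 1661 genes (12.5%) were higher and 1387 (10.4%) were lower. At least 4-fold differences were seen for 862 higher and 641 lower genes, and at least 32-fold differences for 176 and 119. The median log2 fold change of all genes tested was 0.0088. Genes at 10 CPM or more in both samples of a tissue and without a single count in the other were few, 2 in thymus and 5 in whisker. In the plot of all genes, the called genes fan out on both sides of 0 at every level.

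**Figure D1:**
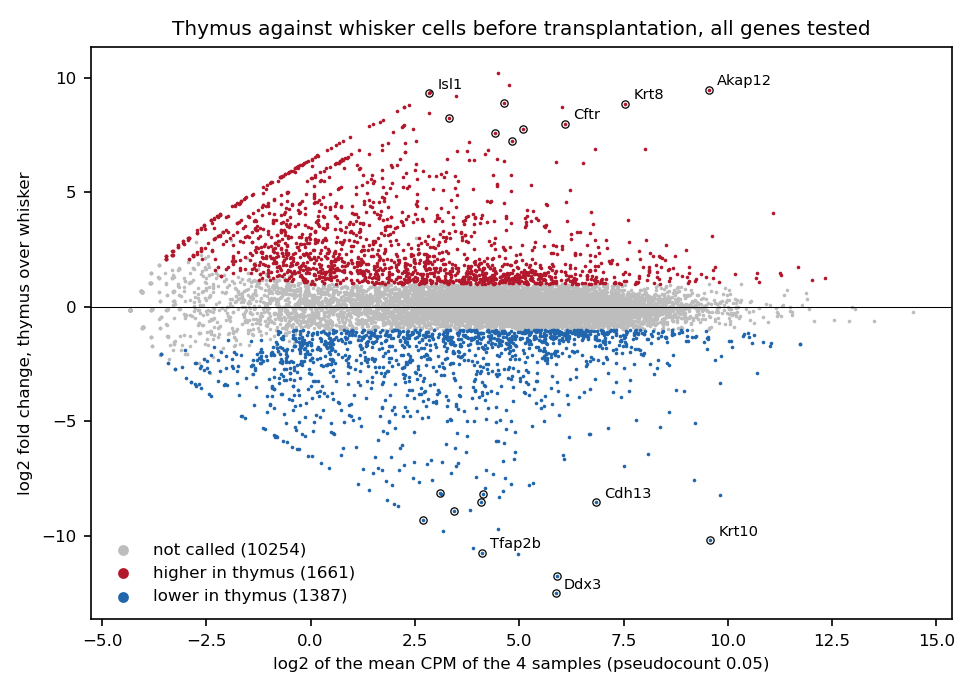
Log2 fold change of thymus over whisker (vertical axis) against the log2 mean CPM of the 4 samples with a pseudocount of 0.05 (horizontal axis), with 1 point for each of the 13302 genes tested. The 1661 genes higher in thymus are red, the 1387 lower genes blue, and the 19 genes described first are circled.

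The genes with the largest differences were named by a rule on size among called genes whose 2 samples of the higher group each reached 10 CPM, a pool of 237 higher and 308 lower genes with a usable symbol. Leading the thymic side was Akap12, which encodes a scaffold that anchors protein kinase A. It reached 1390 and 1593 CPM in the thymic samples and 1.95 and 2.20 CPM in the whisker samples (log2 fold change 9.48 ± 0.26 SE, limma adjusted p = 1.0e-13). Isl1, a LIM homeobox factor of the pharyngeal region, was at 15 and 13.4 CPM in thymus and had no count in whisker, at least 101-fold higher when the whisker level is set to the floor of 3 counts per library (limma adjusted p = 2.3e-09). Krt8, the keratin of simple epithelia, was at 411 and 331 CPM against 0.832 and 0.703 CPM (8.87 ± 0.42, limma adjusted p = 4.9e-11). Cftr, the chloride channel affected in cystic fibrosis, was at 124 and 147 CPM against 0.665 and 0.375 CPM (7.995 ± 0.61, limma adjusted p = 1.3e-08). Every thymic sample lay far above every whisker sample for these genes, which were picked by the size of that difference.

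Pon3, a lactonase of the paraoxonase family, was at 56.0 and 43.0 CPM in thymus, and at 0.125 and 0.0469 CPM in whisker, that is with 4 counts in all. Dmrt2, a factor with a DM domain known from somite development, was at 22.1 and 17.4 CPM in thymus and had 2 counts in whisker, a ratio of 449 with a 95% counting interval of 124 to 3720. The other 3 were an enzyme, an interferon response gene and an actin regulator. Gstt3, a glutathione transferase, was at 77.0 and 58.7 CPM against 0.249 and 0.328 CPM. Ifit2, which is induced by interferon, was at 42.0 and 43.2 CPM against 0.125 and 0.328 CPM. Cobl, an actin nucleator, was at 53.8 and 59.0 CPM against 0.333 and 0.375 CPM. Being called was part of the rule that named them, and their limma adjusted p values were at most 1.3e-08.

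On the whisker side, the largest differences fell on 2 genes of the Y chromosome list. Eif2s3y, the Y-linked subunit of translation factor eIF2, was at 117 and 124 CPM in whisker and had 1 count in thymus, a ratio of 5942 with a 95% counting interval of 1070 to 235000. The gene paired with the symbol Ddx3 was at 114 and 120 CPM in whisker and had no count in thymus, at least 941-fold lower. As a synonym, this symbol is used for the Y-linked Ddx3y, and the symbol alone does not settle its identity. Its levels ran with those of Eif2s3y in each tissue before transplantation. Among the other tissues before transplantation, bladder had means of 109 and 98.1 CPM for Eif2s3y and Ddx3, and trachea and vagina were at or under 0.0778 CPM. The sex of the donors is not given in the labels, and cannot be told apart from the tissue here.

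Besides these, 8 genes were named on the whisker side. Tfap2b, the AP-2 beta transcription factor of ectoderm and neural crest, was at 35.3 and 32.9 CPM in whisker and had no count in thymus, at least 275-fold lower. Krt10, the keratin of differentiating epidermal cells, was at 1716 and 1351 CPM in whisker, and at 1.79 and 0.911 CPM in thymus (-10.19 ± 0.33, limma adjusted p = 6.2e-13). Cadherins, the adhesion proteins between cells, were also among these genes. Cdh13, the T-cadherin, which lacks an intracellular part, was at 240 and 214 CPM in whisker against 0.833 and 0.414 CPM (-8.53 ± 0.35, limma adjusted p = 1.1e-11). Cdh2, the N-cadherin, was at 35.4 and 31.6 CPM against 0.0397 and 0.124 CPM (-8.50 ± 0.62, limma adjusted p = 7.6e-09). Casp1, the caspase that processes interleukin-1 beta, was at 18.4 and 15.7 CPM in whisker, with 4 counts in thymus. The remaining 3 encode enzymes or an endocytic protein. Cbs, which converts homocysteine to cystathionine, was at 37.6 and 32.1 CPM, with 5 counts in thymus. Sdr16c6, a short-chain dehydrogenase, was at 12.3 and 13.2 CPM and had no count in thymus, at least 103-fold lower. Sh3gl2, which encodes endophilin A1, was at 21.5 and 21.7 CPM with 2 counts in thymus, a ratio of 534 with a 95% counting interval of 147 to 4410.

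**Figure D2:**
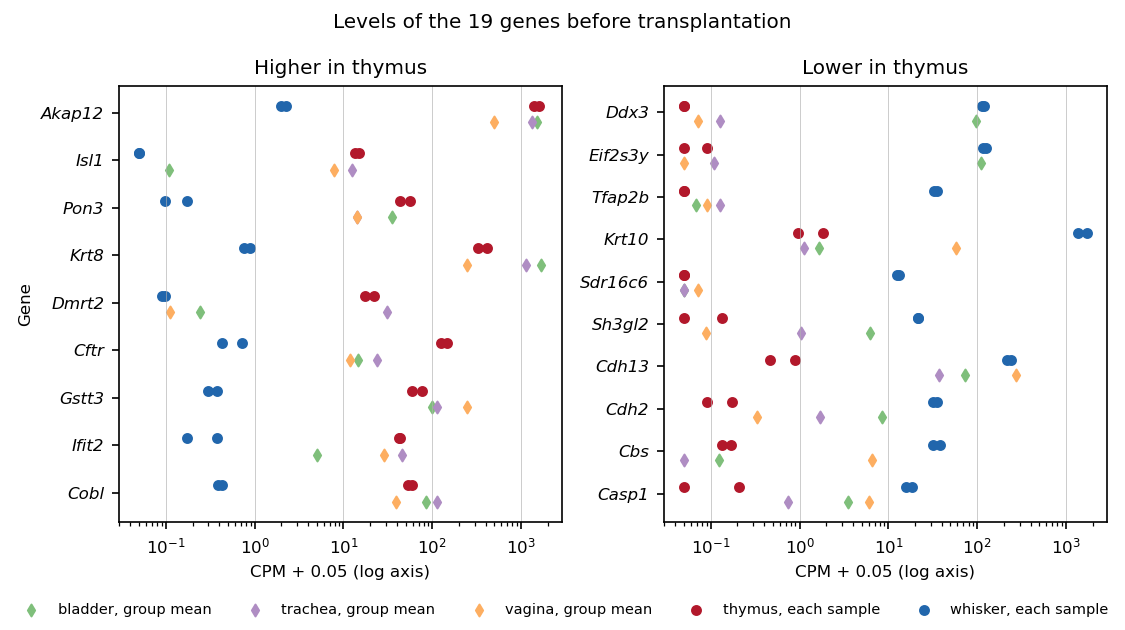
CPM plus 0.05 on a log axis for 19 genes with the largest differences, in each thymic (red) and whisker (blue) sample and as group means of bladder, trachea and vagina before transplantation (diamonds). The genes were chosen by the size of this difference, and the red and blue points do not overlap for any of them. Diamonds lie near the thymic points for Akap12 and Cobl, and near the whisker points for Cdh13 in vagina and for Eif2s3y in bladder.

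The plot by sample shows how far these levels are particular to the thymic cells among the epithelia without hair. This was tested against the mean of bladder, trachea and vagina before transplantation, a comparison in which 8.40% of genes were higher and 10.1% lower in thymus, and which uses the same thymic samples. Cftr was higher in thymus in it (3.08 ± 0.14, limma adjusted p = 2.3e-11), with group means of 14.7 CPM in bladder, 23.9 CPM in trachea and 11.8 CPM in vagina. Krt8 on the contrary was lower in thymus than the mean of these epithelia (-1.06 ± 0.09, limma adjusted p = 8.6e-08), at 1678 CPM in bladder and 1121 CPM in trachea, but vagina, at 243 CPM, lay under both thymic samples. Akap12 was at 1504 CPM in bladder, 1323 CPM in trachea and 494 CPM in vagina, and the thymic level lay within 2-fold of their mean (0.59 ± 0.08). The low thymic level of Cdh13 was found in none of the others, which were at 73.2, 37.2 and 274 CPM (-7.21 ± 0.35, limma adjusted p = 6.0e-11). Tfap2b was at or under 0.0769 CPM in all 3 tissues, and did not pass the test in this comparison (-1.32 ± 0.82, limma adjusted p = 0.18).

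Gene lists were then followed member by member. Only genes with a usable symbol could be counted, of which 55.5% were called (29.3% higher and 26.2% lower), well above the 22.9% of all genes, because the symbols come from lists of genes that differed. The counts below have to be read against these shares, and the lists were drawn up with earlier results of these samples known. Most members given with values were picked because they were called. That their thymic and whisker samples lie apart follows largely from this choice and is no added support. The plot of the gene lists shows each member and the median of each list.

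**Figure D3:**
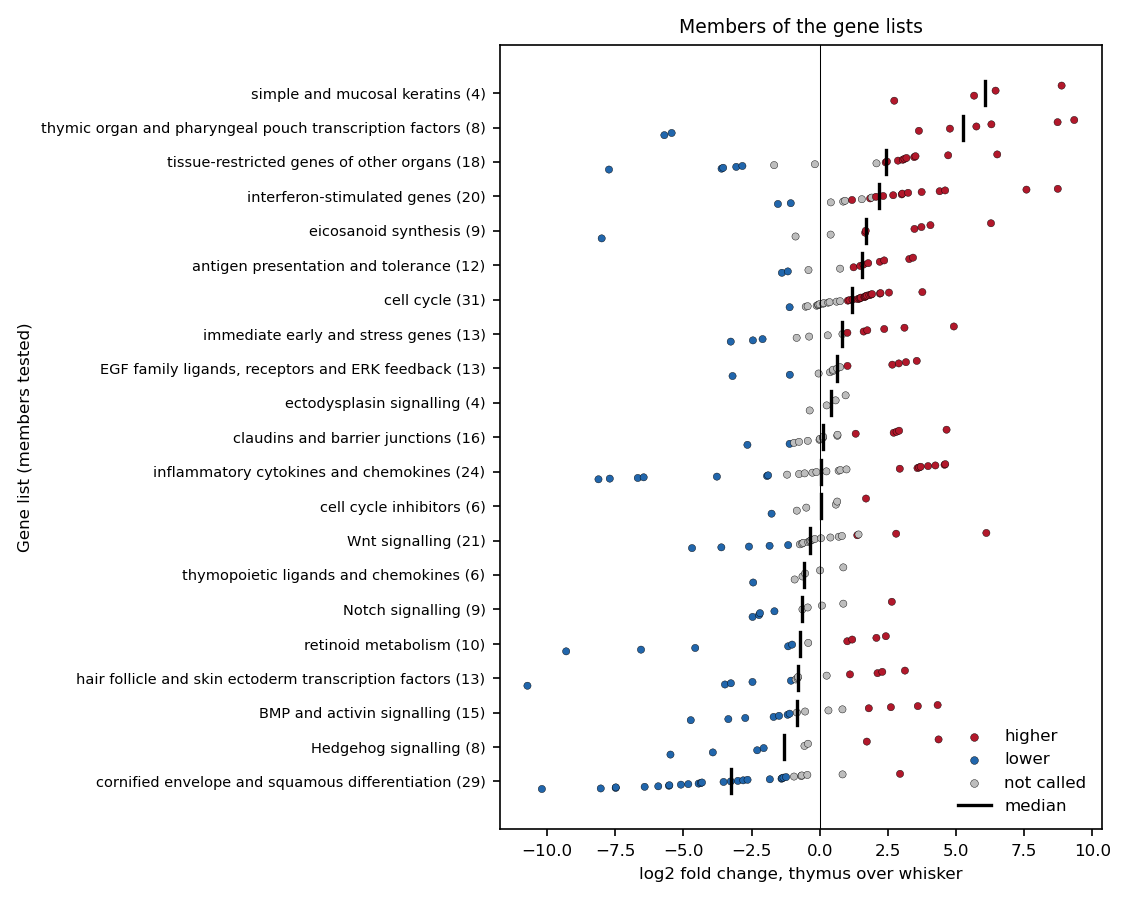
Log2 fold change of thymus over whisker for each tested member of 21 gene lists, ordered by the median (black bar), with the number of members tested in parentheses. Medians run from -3.26 for the cornified envelope list to 6.05 for the simple and mucosal keratins.

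Transcription factors of the pharyngeal pouch were mostly higher in thymus. Among the 8 of 15 listed factors that could be tested, 6 were higher and 2 lower, at a median log2 fold change of 5.26, or 4.69 with the 3 members without a whisker count set to their lower bounds. Besides Isl1, Hoxa3, a Hox gene without which the mouse lacks a thymus, was at 9.29 and 9.32 CPM in thymus and had no count in whisker, at least 66.2-fold higher. Eya1, a transcriptional coactivator of pharyngeal development, was at 34.7 and 46.4 CPM against 0.749 and 0.703 CPM (5.74 ± 0.38, limma adjusted p = 2.0e-09). These genes were named because they were called, so that samples apart from whisker follow largely from that choice. Foxa1, a pioneer factor of endoderm, was low in thymus at 2.94 and 3.11 CPM, with 1 count in whisker (ratio 137.1, 95% counting interval 24.2 to 5450), and was higher in bladder at 101 CPM. Hoxb4 and Hoxb3 were called at thymic levels of at most 0.663 CPM. They had too few counts to be tested when only the 4 samples compared were fitted, which left 4 higher members. Against the mean of bladder, trachea and vagina, Isl1 (2.85 ± 0.18), Hoxa3 (3.05 ± 0.13) and Eya1 (5.56 ± 0.25) were higher in thymus. Foxa1 (-2.65 ± 0.33), Hoxb4 (-2.74 ± 0.30) and Hoxb3 (-3.74 ± 0.29) were lower. Isl1 was still at 12.4 CPM in trachea and 7.84 CPM in vagina. Both members lower in thymus than in whisker are also factors of ectoderm or pharynx. Tbx1, the T-box factor of the pharyngeal arches, which is also expressed in hair follicle stem cells, was at 3.10 and 2.44 CPM in thymus against 154 and 135 CPM in whisker (-5.70 ± 0.29, limma adjusted p = 9.5e-11). Irx4 was at 0.0794 and 0.207 CPM against 6.4 and 6.47 CPM (-5.43 ± 0.38, limma adjusted p = 5.0e-09).

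Transcription factors of hair follicle and skin ectoderm went both ways. Of the 13 tested, 4 were higher in thymus, 5 lower and 4 not called, at a median of -0.81. Beyond Tfap2b, the lower members were En1, Tbx3, Dlx3 and Dlx5. En1, an engrailed homeobox gene of ventral limb skin, was at 0.238 and 0.124 CPM in thymus against 2.12 and 2.16 CPM in whisker (-3.48 ± 0.49, limma adjusted p = 1.3e-05). Tbx3 was at 0.119 and 0.290 CPM against 1.83 and 2.11 CPM (-3.26 ± 0.56), and unlike the others was high in bladder, at 38.7 CPM. Dlx3, a distal-less factor of hair and epidermal differentiation, was at 2.86 and 3.44 CPM against 18.2 and 16.5 CPM (-2.47 ± 0.15, limma adjusted p = 1.1e-09). Dlx5 lost its call without thymus 2 (-0.998) or whisker 1 (-0.78). Barx2 and Bcl11b, both expressed in hair follicles, had log2 fold changes of -0.88 and -0.80 and were not called, although Barx2 was called without thymus 1 (-1.03). The 4 higher members, Dlx6, Satb1, Sox11 and Dlx4, were at 1.78 CPM or less in every thymic sample, and without whisker 1 only 2 of them were higher, since Sox11 (1.32) and Dlx4 (1.29) lost their calls. Dlx4 also lost its call without thymus 2 (0.66) or whisker 2 (0.93).

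Keratins of simple and mucosal epithelia were higher in thymus for each of the 4 tested. Beyond Krt8, its partner Krt18 was at 2.78 and 2.94 CPM in thymus against 0.333 and 0.515 CPM in whisker (2.73 ± 0.53, limma adjusted p = 3.2e-04). Krt19, which is also found in ducts, was at 21.1 and 14.6 CPM against 0.374 and 0.281 CPM (5.66 ± 0.60, limma adjusted p = 5.7e-07). Krt4, the keratin of mucosal epithelia, was at 53.2 and 33.5 CPM against 0.457 and 0.469 CPM (6.45 ± 1.44, limma adjusted p = 0.0011). The thymic samples differed from each other for Krt4. In bladder, Krt18 and Krt19 reached 334 CPM and 922 CPM, and against the mean of bladder, trachea and vagina both were lower in thymus (-4.29 ± 0.23, limma adjusted p = 2.5e-10, and -3.47 ± 0.14, limma adjusted p = 5.5e-12).

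Genes of cornification formed the list with the lowest median, -3.26. Of 29 members tested, 23 were lower in thymus, 1 was higher and 5 were not called. Krt10 led the list, and was followed by Cnfn, Sdr9c7 and Calml5. Cnfn, or cornifelin, a protein of the cornified envelope, was at 0.516 and 0.0414 CPM in thymus against 47.0 and 49.8 CPM in whisker (-8.03 ± 1.19, limma adjusted p = 2.4e-05). Calml5, a calmodulin-like protein of differentiating keratinocytes, was at 0.278 and 0.248 CPM against 54.2 and 47.0 CPM (-7.48 ± 0.41, limma adjusted p = 2.2e-10). Sdr9c7, an enzyme of the epidermal lipid barrier, was at 10.8 and 11 CPM in whisker with 2 counts in thymus (ratio 268, 95% counting interval 73.8 to 2220). The list runs from structural proteins through desmosomal cadherins to proteases and lipid enzymes, and lower members were found among all of these. The desmosomal cadherin Dsg1 was at 0.834 and 0.704 CPM in thymus against 58.3 and 38.8 CPM in whisker (-5.92 ± 0.50, limma adjusted p = 3.7e-08). Klk7, a protease that acts in the shedding of corneocytes, was at 0.397 and 0.538 CPM against 23.4 and 20.6 CPM (-5.52 ± 0.56). Alox12b, a lipoxygenase of the epidermal barrier, had 1 count in thymus and was at 1.04 and 1.36 CPM in whisker (ratio 58.7, 95% counting interval 10.1 to 2360). Casp14, the caspase of terminal differentiation, was less extreme, at 8.73 and 8.41 CPM against 112 and 87.4 CPM (-3.53 ± 0.16, limma adjusted p = 3.6e-11).

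Exceptions in the list were Padi1, Cers3, Dsg4, Crnn, Cysrt1 and Evpl. Padi1, a deiminase of keratins and filaggrin, was higher in thymus at 4.29 and 4.47 CPM against 0.582 and 0.515 CPM (2.94 ± 0.33, limma adjusted p = 1.1e-06), and its level in bladder was 451 CPM. Evpl, or envoplakin, was at 319 and 335 CPM in thymus against 641 and 616 CPM in whisker (-0.94 ± 0.13), just under 2-fold. The ceramide synthase Cers3 was at 49.6 and 43.1 CPM against 28.1 and 23.8 CPM (0.84 ± 0.13). In the map of these genes, Krt10 was at 1.6 CPM in bladder, 1.08 CPM in trachea and 57.7 CPM in vagina, and Sbsn, or suprabasin, at 1.25 CPM, 1.06 CPM and 12.9 CPM, against 9.05 and 4.31 CPM in thymus and 567 and 516 CPM in whisker. For both, bladder and trachea were as low as thymus or lower, and vagina lay between thymus and whisker. Calml3 did not follow this, with means of 4.7 CPM in thymus, 2.71 CPM in bladder, 70.8 CPM in trachea, 90.7 CPM in vagina and 92.2 CPM in whisker. Against the mean of bladder, trachea and vagina, Krt10, Cnfn, Sdr9c7, Calml3, Calml5 and Padi1 were lower in thymus. Sbsn, Dmkn, Dsc1, Dnase1l2, Crnn, Endou and Dapl1 were higher, and the other members were not called.

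**Figure D4:**
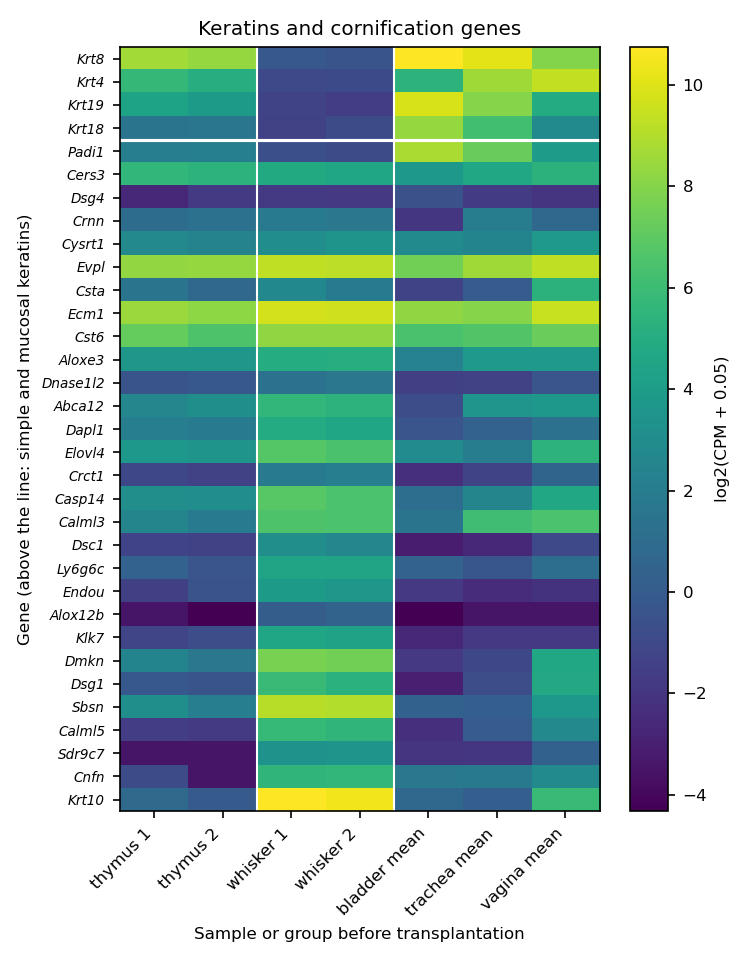
Colour gives log2(CPM + 0.05) of each simple or mucosal keratin (above the white line) and each cornification gene (below it), in the thymic and whisker samples and as group means of bladder, trachea and vagina before transplantation. The whisker columns are dark for the 4 keratins at the top and bright for Krt10, Sbsn and Dmkn near the bottom, where thymus, bladder and trachea are dark.

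Genes of antigen presentation were mostly higher in thymus. Among 12 tested members, 8 were higher, 2 lower and 2 not called, with a median of 1.54 (1.36 with Cd86, which had no whisker count, at its lower bound). Ctsl, the protease that prepares peptides for class II molecules in the thymic cortex, was at 2647 and 2270 CPM in thymus against 897 and 855 CPM in whisker (1.49 ± 0.12, limma adjusted p = 3.9e-08). Nlrc5, the transactivator of class I genes, was at 4.88 and 6.25 CPM against 1.29 and 0.844 CPM (2.36 ± 0.37, limma adjusted p = 3.8e-05). Cd274, the checkpoint ligand PD-L1, was at 1.11 and 1.41 CPM against 0.291 and 0.422 CPM (1.78 ± 0.42, limma adjusted p = 0.0018). These were picked as called members, so that their separate samples are largely given by that choice. Cd74, the invariant chain of class II molecules, was at 4.6 and 2.86 CPM against 1.29 and 1.08 CPM (1.604 ± 0.63, limma adjusted p = 0.037). The call on Cd74 was lost without thymus 1 (1.25), without whisker 1 (1.73) or without whisker 2 (1.48). The costimulatory ligand Cd80 was at 35.0 and 54.6 CPM against 18.1 and 18.9 CPM (1.24 ± 0.26), and lost its call without thymus 2 (0.91). With the 4 samples alone, 5 members were higher. Against the mean of bladder, trachea and vagina, Ctsl was higher in thymus (1.41 ± 0.10, limma adjusted p = 7.7e-09). Cd74 (-1.19 ± 0.38) and Cd83 (-2.555 ± 0.47) were lower in that comparison, and Cd86, Ctss, Nlrc5, Cd274 and Cd80 were not called. Cd74 was at 37.4 CPM in bladder and 13.6 CPM in trachea.

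Mr1 and Aire were the members lower in thymus. Mr1, which presents vitamin metabolites to innate-like T cells, was at 11.8 and 12.7 CPM in thymus against 31.0 and 33.1 CPM in whisker (-1.39 ± 0.11, limma adjusted p = 1.3e-08). Aire, the regulator that lets medullary thymic cells express genes of other organs, was below 1 CPM in both, at 0.278 and 0.373 CPM in thymus against 0.790 and 0.703 CPM in whisker (-1.17 ± 0.43, limma adjusted p = 0.029). Its call was lost when any one sample was left out, with values of -0.98 without thymus 1, -1.38 without thymus 2, -1.09 without whisker 1 and -1.25 without whisker 2, so that 1 lower member remained.

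Ligands that attract or sustain lymphoid progenitors, listed with the chemokine receptors Ackr3 and Ackr4, were mostly within 2-fold. Ackr4 had 1 count in thymus and 2 in whisker, too few to show a difference. Of 6 tested, 0 were higher (limma voom; none of the 5 not called was past 2-fold), and 1, Cxcl12, was called lower with no count in thymus and 0.0832 and 0.0937 CPM in whisker. These levels lie under 3 counts per library, no fold is given, and leaving out thymus 1, thymus 2, whisker 1 or whisker 2 left 0 lower members. The Notch ligand Dll1 was at 100.4 and 109 CPM in thymus against 54.8 and 60.3 CPM in whisker (0.86 ± 0.11). Cxcl16, a chemokine, was at 98.8 and 77.0 CPM against 148 and 124 CPM (-0.63 ± 0.10). In bladder, trachea and vagina Dll1 was at 4.76 CPM, 22.5 CPM and 43.2 CPM, and thymus was higher than their mean (2.69 ± 0.10, limma adjusted p = 2.9e-12).

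Genes of other organs, of the kind that the thymic medulla transcribes under Aire, were followed as well. Of 18 tested, 10 were higher in thymus, 5 lower and 3 not called, with a median of 2.44, or of 1.39 with the 3 members without a whisker count at their bounds. Ctrb1, a pancreatic protease precursor, was at 3.89 and 3.15 CPM in thymus with 1 count in whisker (ratio 160.1, 95% counting interval 28.4 to 6360). Its relative Ctrc was at 5.75 and 7.54 CPM against 0.707 and 0.703 CPM (3.18 ± 0.44, limma adjusted p = 1.2e-05). No higher member passed 7.54 CPM in a thymic sample, and with the 4 samples alone 5 were higher. Adipoq, Kap, Cryga, Cyp11a1 and Apcs stayed under 1 CPM in both thymic samples. Against the mean of bladder, trachea and vagina, Ctrb1, Ctrc and Cryga were higher in thymus. In the same comparison Adipoq, Kap, Hgfac and Cyp11a1 were lower, and Apcs, Bfsp1 and Bfsp2 were not called. Hgfac was at 25.0 CPM in bladder, 20.6 CPM in trachea and 9.32 CPM in vagina. Genes of other organs were also found on the whisker side, at higher levels. The kininogen Kng2 was at 0.437 and 0.124 CPM in thymus against 58.8 and 51.3 CPM in whisker (-7.73 ± 0.44, limma adjusted p = 3.6e-10), and the lens crystallin Cryba4 at 8.26 and 4.6 CPM against 68.5 and 83.3 CPM (-3.60 ± 0.22, limma adjusted p = 7.4e-10).

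Interferon-stimulated genes, which cells switch on through interferon receptors and STAT and IRF factors, were mostly higher in thymus. Of 20 tested, 13 were higher, 2 lower and 5 not called, with a median of 2.19 (1.98 with Ifitm1 and Apol3, which had no whisker count, at their bounds). Ifitm1, a membrane protein that restricts viral entry, was at 9.88 and 8.82 CPM in thymus and had no count in whisker, at least 66.5-fold higher. Isg15, a ubiquitin-like modifier, was at 14.0 and 9.90 CPM against 0.707 and 1.08 CPM (3.74 ± 0.37, limma adjusted p = 2.6e-07), and Uba7, the enzyme that activates it, at 16.7 and 16.8 CPM against 2.20 and 1.92 CPM (3.01 ± 0.20, limma adjusted p = 2.8e-09). The nuclear body protein Sp140 was at 35.0 and 37.4 CPM against 1.58 and 1.36 CPM (4.598 ± 0.23, limma adjusted p = 9.0e-11). Being called was part of the choice of these members, so that their separate samples add no support. Irf8, an interferon regulatory factor, was at 102 and 92.1 CPM against 15.1 and 14.8 CPM (2.69 ± 0.08, limma adjusted p = 5.0e-13). Lower in thymus were the inflammasome sensor Aim2, at 0.873 and 0.994 CPM against 2.74 and 2.72 CPM (-1.53 ± 0.27, limma adjusted p = 1.3e-04), and the inflammatory caspase Casp4, at 14.5 and 12.6 CPM against 30.1 and 26.3 CPM (-1.06 ± 0.10). The call on Casp4 was lost without thymus 2 (-0.97) or without whisker 1 (-0.96), which left 1 lower member. The 13 higher members went several ways against the mean of bladder, trachea and vagina. Ifitm1 (2.35), Isg15 (1.655), Ifit2 (1.19) and Irf8 (1.00) were higher in thymus. Slfn5 (-3.975), Apol3 (-1.96), Ifi47 (-1.62) and Irgm (-1.37) were lower, and Sp140, Uba7, Cmpk2, Sp100 and Cxcl10 were not called. Sp140 was at 35.3 CPM in bladder, 41.9 CPM in trachea and 60.1 CPM in vagina.

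For 11 of these 20 genes, the 250 bases before the start of transcription were available (RefSeq, GRCr8), and were searched on both strands for GAAA, any 2 bases and GAAA again, the core letters of the interferon-stimulated response element. This string was present in 3.41% of 33469 promoters of that length. It was found in 2 of 6 higher members (Irgm and Cxcl10), in 0 of 1 lower member and in 2 of 4 members not called (Gbp5 and Apol9a, where 2 matches overlap). The promoters of Irgm, Cxcl10 and Gbp5 are shown because they hold the string in 2 genes called higher and 1 not called, with the match in capitals. It begins at -34 from the start in Irgm (chr10:33742579-33742828, minus strand), at -243 in Cxcl10 (chr14:15988816-15989065, plus strand), and at -56 in Gbp5 (chr2:233910749-233910998, plus strand), where it reads on the opposite strand.
Irgm: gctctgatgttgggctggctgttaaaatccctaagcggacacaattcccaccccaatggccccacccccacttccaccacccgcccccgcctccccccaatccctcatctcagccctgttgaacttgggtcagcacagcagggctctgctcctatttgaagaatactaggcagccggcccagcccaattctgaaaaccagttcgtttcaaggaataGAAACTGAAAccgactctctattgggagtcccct
Cxcl10: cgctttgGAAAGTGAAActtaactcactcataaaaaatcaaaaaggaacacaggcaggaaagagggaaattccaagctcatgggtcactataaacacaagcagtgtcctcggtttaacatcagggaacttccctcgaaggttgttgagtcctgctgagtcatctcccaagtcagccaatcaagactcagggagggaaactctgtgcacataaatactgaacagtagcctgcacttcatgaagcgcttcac
Gbp5: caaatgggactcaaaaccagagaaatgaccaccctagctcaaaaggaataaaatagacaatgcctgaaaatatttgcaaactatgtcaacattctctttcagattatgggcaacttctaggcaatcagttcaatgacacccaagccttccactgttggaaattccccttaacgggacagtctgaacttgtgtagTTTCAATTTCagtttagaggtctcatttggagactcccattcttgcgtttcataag
Irgm, a GTPase of cell-autonomous immunity, was at 15.4 and 12.9 CPM in thymus against 6.36 and 6.0 CPM in whisker (1.18 ± 0.13, limma adjusted p = 7.3e-07). Cxcl10, a chemokine for activated T cells, was at 45.1 and 37.1 CPM against 11.1 and 11.6 CPM (1.85 ± 0.28, limma adjusted p = 3.5e-05). Gbp5, a guanylate-binding protein, had 9 counts in thymus and 2 in whisker (limma adjusted p = 0.44), and was at 25.1 CPM in bladder. A match is a description of the letters, and whether a factor binds there was not tested.

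Inflammatory cytokines and chemokines went both ways. Of 24 tested, 8 were higher in thymus, 7 lower and 9 not called, with a median of 0.06. The neutrophil chemokine Cxcl1 was at 216 and 181 CPM in thymus against 26.7 and 25.0 CPM in whisker (2.94 ± 0.15, limma adjusted p = 8.2e-11), and its relative Cxcl2 at 43.5 and 33.5 CPM against 1.87 and 1.26 CPM (4.602 ± 0.44, limma adjusted p = 1.6e-07). Csf3, the granulocyte growth factor, was at 75.8 and 61.3 CPM against 3.58 and 3.61 CPM (4.24 ± 0.38, limma adjusted p = 8.7e-08). Tnfaip3, the inhibitor A20 of NF-kappa B signalling, was at 129 and 137.4 CPM against 5.91 and 5.2 CPM (4.58 ± 0.18, limma adjusted p = 4.5e-12). The cytokine Osm was higher as well (3.97 ± 0.45). The genes higher in whisker included antagonists and decoys of the interleukin-1 family. Il36rn, the interleukin-36 receptor antagonist, was at 1.59 and 1.37 CPM in thymus against 123 and 141 CPM in whisker (-6.46 ± 0.23, limma adjusted p = 1.6e-12). Il1r2, the decoy receptor, was at 0.397 and 0.331 CPM against 83.4 and 76.1 CPM (-7.70 ± 0.32, limma adjusted p = 1.0e-11). Il1f10, or interleukin-38, was at 0.119 and 0.124 CPM against 14.1 and 14.9 CPM (-6.67 ± 0.53, limma adjusted p = 1.8e-08). Cxcl3 and Cxcl6 were not called, with log2 fold changes of -0.76 and -0.27. Against the mean of bladder, trachea and vagina, Cxcl1 (0.39), Cxcl2 (-0.78), Csf3 (-0.57) and Tnfaip3 (0.98) were not called, and Osm was higher in thymus (1.79).

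Enzymes and a receptor of prostaglandin and leukotriene signalling were higher in thymus in 6 of 9 cases, lower in 1 and not called in 2, at a median of 1.69. Ptgs1, the constitutive cyclooxygenase, was at 176 and 186 CPM in thymus against 2.29 and 2.34 CPM in whisker (6.28 ± 0.20, limma adjusted p = 6.2e-13). Ptges, which makes prostaglandin E2, was at 99.2 and 82.1 CPM against 8.86 and 7.36 CPM (3.47 ± 0.14, limma adjusted p = 9.4e-12). In bladder, trachea and vagina, Ptgs1 was at 398, 165 and 318 CPM and Ptges at 21.9, 93.35 and 126 CPM. Thymus lay within 2-fold of their mean for both (-0.60 ± 0.07 and 0.51 ± 0.08). The inducible enzyme Ptgs2 was at 9.29 and 12.7 CPM against 3.66 and 3.14 CPM (1.67 ± 0.30, limma adjusted p = 1.5e-04). Receptor Ptger1 and lipoxygenase Alox15 were higher at thymic levels of at most 4.64 CPM. The phospholipase Pla2g2f had no count in thymus and was at 5.07 and 5.25 CPM in whisker, at least 41.5-fold lower in thymus. Without thymus 1, Akr1b8 joined it as a lower member (-1.02), which made 2.

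Of 13 growth factors, receptors and feedback genes of EGF signalling tested, 5 were higher in thymus, 2 lower and 6 not called, at a median of 0.64. The share called, 53.8%, was near the 55.5% of all genes with a usable symbol. Among the higher members, Nrg1 (neuregulin) lost its call without thymus 2 (0.81) or whisker 2 (0.95). Ereg, or epiregulin, was at 55.8 and 76.4 CPM in thymus against 6.03 and 5.01 CPM in whisker (3.56 ± 0.19, limma adjusted p = 1.7e-10). Epgn, or epigen, was at 141 and 131 CPM against 14.6 and 15.8 CPM (3.16 ± 0.15, limma adjusted p = 4.3e-11), and Areg, or amphiregulin, at 126 and 98.5 CPM against 18.7 and 16.4 CPM (2.66 ± 0.27, limma adjusted p = 3.0e-07). These are ligands of the EGF receptor. The phosphatases that restrain ERK diverged. Dusp5 was at 502 and 423 CPM against 61.6 and 61.9 CPM (2.90 ± 0.10, limma adjusted p = 1.3e-12), whereas Dusp4 was at 1.98 and 2.24 CPM against 17.0 and 22.5 CPM (-3.20 ± 0.20, limma adjusted p = 1.5e-09). The receptor Erbb3 was at 51.1 and 59.8 CPM against 115 and 122 CPM (-1.10 ± 0.19, limma adjusted p = 1.3e-04), and lost its call without thymus 1 (-0.99), which left 1 lower member.

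Signalling pathways that pattern the hair follicle were examined next. In the Wnt list, 3 of 21 members were higher in thymus, 5 lower and 13 not called, with a median of -0.34. Without thymus 1, 5 members were higher, with Celsr3 (1.798) and Amer1 (1.04) added. The ligand Wnt4 was at 155 and 129.7 CPM in thymus against 57.6 and 51.6 CPM in whisker (1.38 ± 0.13, limma adjusted p = 2.2e-07). Wnt3, a ligand of hair development, was at 1.29 and 0.984 CPM in whisker with 2 counts in thymus (ratio 28.3, 95% counting interval 7.44 to 240), and the secreted Dkk3 at 2.58 and 2.73 CPM in thymus with 1 count in whisker (ratio 120.5, 95% counting interval 21.3 to 4800). Lgr4, the R-spondin receptor, was at 22.8 and 32.9 CPM in thymus against 152 and 179 CPM in whisker (-2.60 ± 0.13, limma adjusted p = 9.6e-11). Ligands were found on both sides, and both receptors called were lower in thymus. The other receptor, Ror2 (-3.61 ± 0.52), the planar polarity cadherin Celsr2 (-1.84 ± 0.16) and the formin Daam1 (-1.16 ± 0.07) were also lower in thymus. Beta-catenin, Ctnnb1, stayed within 2-fold at 527 and 525 CPM against 672 and 688 CPM (-0.37 ± 0.08), as did all 3 dishevelled genes.

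Hedgehog genes were lower in thymus in 4 of 8 cases, higher in 2 and not called in 2, with a median of -1.31. Gli1, the pathway's effector and own target, was at 0.198 and 0.248 CPM in thymus against 10.2 and 11.3 CPM in whisker (-5.47 ± 0.42, limma adjusted p = 1.3e-08). Gli2 was at 8.73 and 11.4 CPM against 48.1 and 49.9 CPM (-2.29 ± 0.11, limma adjusted p = 6.8e-11), and the ciliary protein Evc2 at 1.83 and 2.19 CPM against 31.5 and 29.6 CPM (-3.92 ± 0.16, limma adjusted p = 1.1e-11). These genes act within the cell that receives the signal. The ligand Dhh was lower as well (-2.06 ± 0.41, limma adjusted p = 4.1e-04). The coreceptor Boc went the other way, at 67.9 and 71.5 CPM against 20.9 and 21.2 CPM (1.73 ± 0.08, limma adjusted p = 2.4e-11), as did Disp2 at 5.2 and 5.14 CPM against 0.499 and 0.0937 CPM (4.36 ± 0.49, limma adjusted p = 1.1e-06).

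BMP and activin genes were higher in thymus in 4 of 15 cases, lower in 7 and not called in 4, at a median of -0.84. The receptor Bmpr1b was at 10.2 and 15.6 CPM in thymus against 0.499 and 0.750 CPM in whisker (4.32 ± 0.42, limma adjusted p = 2.1e-07), and the ligand Bmp8b at 49.6 and 44.2 CPM against 8.61 and 6.75 CPM (2.61 ± 0.13, limma adjusted p = 9.3e-11). Bmp2 was lower, at 1.15 and 1.61 CPM against 15.4 and 12.8 CPM (-3.35 ± 0.25, limma adjusted p = 8.1e-09). Secreted modulators of the pathway were lower too. Chordin, Chrd, an antagonist of BMPs, was at 1.55 and 1.49 CPM against 8.90 and 11.9 CPM (-2.73 ± 0.21, limma adjusted p = 1.8e-08), and Fstl1, a follistatin-like protein, at 4.68 and 4.27 CPM against 124 and 115 CPM (-4.73 ± 0.21, limma adjusted p = 1.8e-11). Gdf15 was at 5.0 and 3.73 CPM against 1.33 and 1.12 CPM (1.799 ± 0.59), and lost its call without thymus 1 (1.57), whisker 1 (1.92) or whisker 2 (1.68).

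Of 9 Notch genes, 1 was higher in thymus, 4 lower and 4 not called, at a median of -0.64. Mfng, the glycosyltransferase manic fringe, was the higher member, at 2.70 and 3.81 CPM against 0.333 and 0.750 CPM (2.64 ± 0.48, limma adjusted p = 1.8e-04). Numbl, an inhibitor of Notch, was at 13.4 and 12.5 CPM against 57.9 and 60.8 CPM (-2.19 ± 0.11, limma adjusted p = 6.3e-11), and the deltex gene Dtx4 at 3.33 and 3.31 CPM against 18.2 and 13.2 CPM (-2.23 ± 0.19, limma adjusted p = 3.8e-08). Of the 4 ectodysplasin genes, 0 were called (limma voom), while 3 had an adjusted p value under 0.05 at less than 2-fold. The adaptor Edaradd was at 21.6 and 34.2 CPM against 36.0 and 34.0 CPM (-0.37 ± 0.14). Eda2r was called higher without thymus 1 (1.03) and Edar without thymus 2 (1.07), which gave 1 higher member in each case.

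In retinoid metabolism, 4 of 10 genes were higher in thymus, 5 lower and 1 not called, at a median of -0.72. Crabp2, which carries retinoic acid to the nucleus, was at 458 and 334 CPM in thymus against 76.5 and 69.4 CPM in whisker (2.42 ± 0.12, limma adjusted p = 7.5e-11), and the reductase Dhrs3 at 333 and 289 CPM against 70.9 and 76.4 CPM (2.08 ± 0.12, limma adjusted p = 6.1e-10). On the other side, the retinaldehyde dehydrogenase Aldh1a1 was at 1.03 and 0.994 CPM against 23.5 and 25.5 CPM (-4.57 ± 0.25, limma adjusted p = 2.4e-10), and Cyp26b1, which degrades retinoic acid, at 13.8 and 15.9 CPM against 30.5 and 36.2 CPM (-1.16 ± 0.12, limma adjusted p = 5.9e-07). The genes of this pathway thus differed in both directions. Adh7, a retinol dehydrogenase, was at 7.19 and 7.59 CPM in whisker with 3 counts in thymus (ratio 121, 95% counting interval 41.2 to 592). The carotene oxygenase Bco1 lay at the 2-fold limit (1.01 ± 0.25) and fell below it without thymus 1 (0.90) or whisker 1 (0.88).

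Among claudins and other junction genes, 9 of 16 were not called, 5 were higher and 2 lower in thymus, with a median of 0.12. Cdh1, or E-cadherin, was at 1023 and 1015 CPM in thymus against 1078 and 975 CPM in whisker (-0.01 ± 0.07). Cldn1, the claudin of the epidermal barrier, was at 657 and 659.8 CPM against 621 and 585 CPM (0.13 ± 0.21). These abundant epithelial genes were thus at near levels in all 4 samples. Jam2, a junctional adhesion molecule, was at 19.6 and 20.2 CPM against 0.790 and 0.750 CPM (4.65 ± 0.41, limma adjusted p = 7.8e-08), and Cgnl1, or paracingulin, at 164 and 176 CPM against 28.1 and 23.8 CPM (2.71 ± 0.10, limma adjusted p = 2.8e-12). The polarity gene Crb3 was lower at 11.5 and 8.12 CPM against 22 and 19.7 CPM (-1.10 ± 0.14), and lost its call without thymus 2 (-0.87). Cldn17, the other lower member, had 1 count in thymus and 11 in whisker, and lost its call without thymus 1 (-1.83) or whisker 1 (-1.75).

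Genes of the cell cycle were higher in thymus in 18 of 31 cases, lower in 1 and not called in 12, with a median of 1.20. Cdc6, which loads the replicative helicase, was at 22.9 and 23.6 CPM in thymus against 1.79 and 1.59 CPM in whisker (3.76 ± 0.38, limma adjusted p = 3.2e-07), and its partner Cdt1 at 20.8 and 18.1 CPM against 3.41 and 3.23 CPM (2.54 ± 0.31, limma adjusted p = 2.7e-06). Exo1, a nuclease of DNA repair, was at 12.2 and 11.4 CPM against 2.70 and 2.30 CPM (2.23 ± 0.26, limma adjusted p = 1.9e-06). The 18 higher members ran down to 1.03 for Asf1b, a histone chaperone. The 12 members not called had log2 fold changes from -0.51 for Cenpf to 0.74 for Cdc25c. Aurkb, a mitotic kinase, was also higher, at 533 and 539.6 CPM against 117 and 116 CPM (2.21 ± 0.14, limma adjusted p = 1.2e-09). Cdc25b, a phosphatase of mitotic entry, was the lower member, at 22.2 and 21.2 CPM against 49.8 and 43.8 CPM (-1.10 ± 0.13, limma adjusted p = 2.5e-06).

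**Figure D5:**
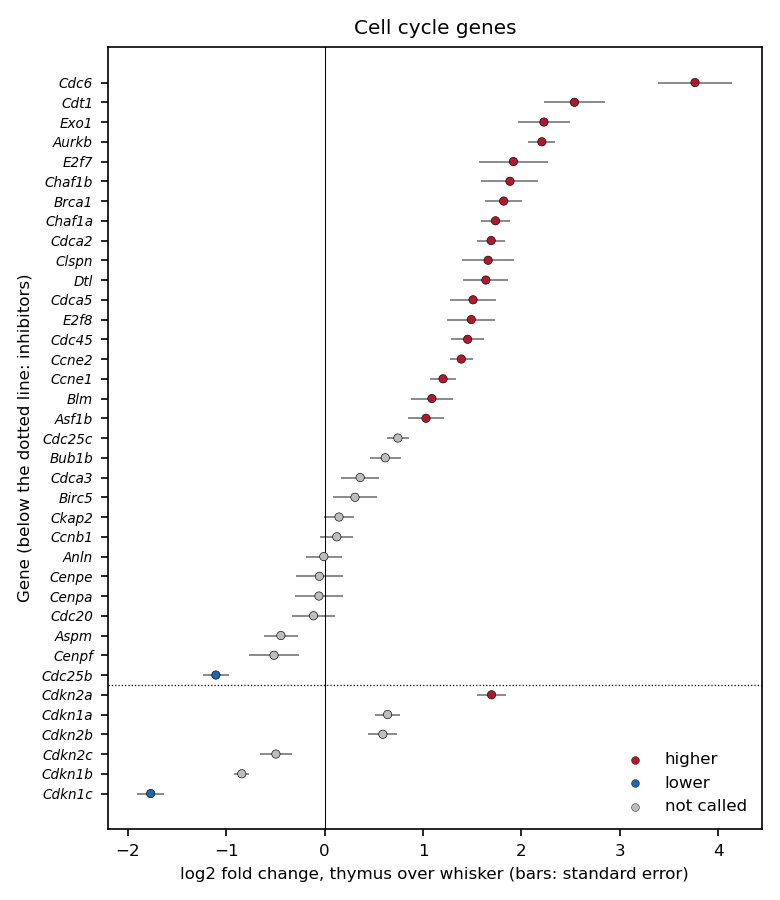
Log2 fold change of thymus over whisker with its standard error for each of 31 cell cycle genes and 6 inhibitors (below the dotted line), coloured by call. Above the dotted line, points run from 3.76 for Cdc6 down to -1.10 for Cdc25b, and the 12 not called there (grey) lie between -0.51 and 0.74.

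Among the 6 inhibitors of cyclin-dependent kinases, 1 was higher, 1 lower and 4 not called, at a median of 0.05. Cdkn2a was at 132 and 96.3 CPM in thymus against 34.3 and 35.5 CPM in whisker (1.70 ± 0.14, limma adjusted p = 3.9e-08), and Cdkn1c at 23.3 and 16.5 CPM against 66.7 and 66.9 CPM (-1.77 ± 0.14, limma adjusted p = 1.2e-08). Immediate early and stress genes were higher in 6 of 13 cases, lower in 3 and not called in 4, at a median of 0.83. Cyr61, a secreted matrix protein and target of YAP, was at 1485 and 1322 CPM against 156 and 169 CPM (3.11 ± 0.14, limma adjusted p = 2.0e-11). Its relative Ctgf went the other way, at 171 and 141 CPM against 657 and 674 CPM (-2.10 ± 0.11, limma adjusted p = 2.5e-10). Atf3, Dusp1 and Btg2, which respond to stress and mitogens, were higher (2.36 ± 0.14, 1.74 ± 0.10 and 1.61 ± 0.10). Ddit4, an inhibitor of mTOR induced by stress, was at 119 and 110.5 CPM against 627 and 629.9 CPM (-2.45 ± 0.07, limma adjusted p = 2.8e-13).

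Chst11 and Itgb8 were lower in thymus. From microarrays, the study names them among the few genes that still differed from whisker in all its tissues after transplantation. Chst11, a chondroitin sulfotransferase, was at 9.96 and 13.2 CPM against 33.4 and 34.4 CPM (-1.56 ± 0.13, limma adjusted p = 5.3e-08), and Itgb8, an integrin that activates TGF beta, at 0.714 and 2.28 CPM against 42.4 and 41.0 CPM (-5.02 ± 0.34, limma adjusted p = 2.7e-09). The thymic level of Itgb8 differed between the samples, but remained far under that of whisker. In the RNA-Seq samples after transplantation, Itgb8 was still lower in thymus than in whisker (-1.415, limma adjusted p = 1.51e-06). Chst11 was not called there (0.27, limma adjusted p = 0.078).

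Markers were checked against the labelled cell types as far as they could be named. In the thymic epithelium list, 3 of 5 tested markers were higher in thymus (Hoxa3, Eya1 and Cd83) and 2 lower (Tbx1 and Aire), and the defining Foxn1, Psmb11 and Ccl25 are not analysed here. Cd83 was at 0.198 and 0.124 CPM in thymus with 1 count in whisker (ratio 7.36, 95% counting interval 0.987 to 327), and its call was lost without thymus 1 (1.89) or whisker 2 (1.51). Of the hair follicle list, 3 of 12 could be tested. Tbx1 was lower in thymus, while Edar and Cd34 were not called, Cd34 with at most 0.0832 CPM in any of the 4 samples. Markers of basal stratified epithelium were abundant in both, with sums over 5 genes of 2773 and 3572 CPM in thymus and of 8790 and 8345 CPM in whisker. Col17a1, the hemidesmosomal collagen, was at 1547 and 1781 CPM against 5157 and 5133 CPM (-1.63 ± 0.20, limma adjusted p = 3.1e-06), the desmosomal cadherin Dsc3 at 311 and 359 CPM against 1600 and 1410 CPM (-2.17 ± 0.09, limma adjusted p = 9.4e-12), and Dst, Dsg3 and Bnc1 were not called, although Dst was called lower without thymus 2 (-1.42).

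Other cell types were looked for in the same way. Of 11 fibroblast markers 0 were higher in thymus, 3 were lower (Col5a2, Bgn and Aspn) and 8 not called, with sums of 465 and 547 CPM in thymus and 1230 and 1238 CPM in whisker. Col5a2, at 373 and 433 CPM against 1092 and 1062 CPM, made up most of these sums. Other collagens were low, with Col1a1 at 13.5 and 14.4 CPM against 18.5 and 33.2 CPM and Col3a1 at 5.04 and 4.14 CPM against 3.74 and 9.23 CPM. Of the 11, 9 were higher in whisker 2 than in whisker 1. Without whisker 1, 9 markers were lower in thymus, and Bgn was not called without thymus 1 (-1.56), thymus 2 (-0.94) or whisker 2 (-0.96). Of 6 markers of blood cells, 3 were higher in thymus (Coro1a, Lcp1 and Cd68) and 3 not called, with sums of 32.3 and 27.9 CPM against 12.6 and 11.1 CPM, mostly Cd68 at 29.7 and 25.8 CPM against 12 and 10.7 CPM. Coro1a was at 1.19 and 1.20 CPM in thymus with no count in whisker, and Cd69 had no count in any of the 4 samples. No melanocyte marker could be named. The part of these cells in the differences above was not tested, and in bulk samples fewer cells of a type cannot be told apart from less RNA per cell.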

How the data were processed

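RNA-Seq was measured in 20 samples, 2 in each of 10 groups (5 tissues, before and after transplantation), of which the thymic and whisker samples before transplantation were compared. The authors deposited raw counts per gene, made per their methods and processing notes with cutadapt 1.8, STAR 2.5.2b and HTSeq 0.6.1 on the rat assembly Rnor_6.0. Reads that mapped to several places were not counted, so near-identical genes may be understated. Rows that name no gene were left out, and they held 43.6% to 45.0% of the counted reads in the 4 libraries. The authors' columns of their own comparisons were not used.

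Counts were scaled by TMM (edgeR 4.0.16) and tested with limma voom 3.58.1 in R 4.3.3, with 1 mean per group over all 20 samples (10 residual degrees of freedom), for genes that reached 1 CPM in any sample. P values were adjusted by Benjamini-Hochberg over all genes tested, and a gene was called at an adjusted p under 0.05 and at least 2-fold. CPM values are counts per 1000000 reads on genes scaled by TMM, and log2 fold changes are thymus minus whisker with the standard error of the fit. With 2 samples against 2, an exact permutation test cannot give a p below 0.33. Levels of 3 counts per library were taken as the floor for genes without a count, and 95% counting intervals of ratios and the floor cover counting error only. On simulated data for this comparison, limma recovered 100% of 200 genes of 13302 changed by a log2 fold of 2, with 2 false calls. Changes were planted only in genes above a minimum mean level, and every group was given the same spread. The simulation therefore does not cover smaller differences, genes with few counts or a group that varies more than others.

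Symbols came from the study's own gene lists, and conflicting, clone or locus names were not used. Named genes were the 10 largest differences in each direction at 10 CPM or more, up to 4 called members per direction of each gene list at 1 CPM or more, and genes discussed in the study, with further list members given as examples. Some genes of these rules and lists are not reported here, and were left out of the list counts. The members and lists were chosen with earlier results of these data known. Deviations of same-numbered samples of thymus and whisker were weakly correlated (0.0499 over genes), so samples were not paired. Over all 45 pairs of groups this correlation ran from -0.123 to 0.24, with 10 pairs over 0.1. The share of unique reads that fell on no gene was higher in sample 2 of both groups. It was 18.7% against 14.9% in thymus and 19.3% against 15.7% in whisker. The alternatives were the edgeR quasi-likelihood test, DESeq2 1.42.0, its size factors, other filters, a larger fold threshold, fits of fewer samples, a replicate block and leaving out each sample.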

Additional observations from a re-analysis of the deposited data

Results flagged for a closer look

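For 10 of 19 genes with the largest differences, the log2 fold change of thymus over whisker differed between the samples before and after transplantation. This was tested by the difference of both contrasts (limma voom, called for 18.6% of all genes), and the values below are before minus after, with their standard errors. The genes were chosen by their difference before transplantation, which is part of this test, so that the choice favours smaller differences afterwards and nothing is read from the count of 10. The whisker samples are labelled clone 7 before and subclone 14 after transplantation, so that for whisker the clone and transplantation cannot be told apart, and for thymus no change of clone is shown.

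On the thymic side, the difference was larger before transplantation by 5.27 ± 0.53 for Ifit2 (7.58 before and 2.32 after, limma adjusted p = 1.03e-06), and by 4.62 ± 0.68 for Dmrt2 (8.22 and 3.59, limma adjusted p = 5.26e-05). For Akap12 it was larger by 1.46 ± 0.42 (9.48 and 8.02, limma adjusted p = 0.0107). All 3 were still higher in thymus afterwards.

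On the whisker side, Casp1 changed most, by -9.26 ± 0.63 (limma adjusted p = 1.06e-08). It was lower in thymus before (log2 fold change -8.12). After transplantation it was called higher in thymus (log2 fold change 1.15, limma adjusted p = 9.15e-07), with means of 26.2 CPM in thymus and 11.9 CPM in whisker. Cdh13 differed by -6.57 ± 0.37 (-8.53 before and -1.96 after, limma adjusted p = 1.08e-09). Sh3gl2 differed by -5.53 ± 0.74 (limma adjusted p = 2.16e-05) and Cbs by -5.30 ± 0.74 (limma adjusted p = 3.07e-05). Krt10 differed by -4.13 ± 0.36 (-10.19 and -6.06, limma adjusted p = 1.67e-07), and its mean in thymus after transplantation was 13.2 CPM. The values of Sdr16c6 and Cdh2 were -3.74 ± 1.08 (limma adjusted p = 0.0107) and -3.11 ± 0.77 (limma adjusted p = 0.00399). Fitted fold changes of genes without or with few counts in a group, among them Sdr16c6, Sh3gl2 and Dmrt2, depend on the prior count.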

How the results depend on the processing

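Counts of called genes stayed within 1.5 times of 3048 under every alternative tried except a threshold of log2 fold change 2, where 1503 were called, 862 higher and 641 lower in thymus, with 1064 against the other epithelia and 1132 for before minus after. Without the low-count filter 3925 were called. With each sample left out in turn, 2892 to 3166 were called, 1508 to 1658 higher and 1299 to 1508 lower, with 2279 to 2545 against the other epithelia and 2127 to 2862 for before minus after. The lone sample left in a group is then assumed to vary like the other groups. With the replicate block 3056 were called, 99.5% of the 3048 among them. The numbers are not shown to pair the samples (correlation of deviations 0.0499). No named gene changed sign past the threshold. Of 324 genes of the lists and rules, 13 to 18 lost their call without a given sample. Under edgeR the before minus after difference of Sdr16c6 was not called (-5.81). Lists that move by counts of 1 or 2 genes under 1 CPM are limited by depth, since 3 counts are at most 0.141 CPM.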
